A study of Mus musculus with 3 samples.

Results

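The lipid handling genes described here are 10 genes taken by name from the 32886 gene columns of a table of unique molecular identifier (UMI) counts in single kidney immune cells. They are Trem2 and Tyrobp, a receptor and its signalling adaptor; Apoe, Pltp and Lpl, which act on lipoproteins; Abca1 and Abcg1, which export cholesterol; and Gpnmb, Fabp5 and Npc2, a membrane glycoprotein of lipid-laden macrophages, a fatty acid carrier and a lysosomal cholesterol carrier. All 10 were found in the table. The cells came from kidneys of 10-week-old C57BL/6J males that had received no treatment. Kidneys were cut into cortex, outer medulla (OM in what follows) and inner medulla (IM), CD45+ cells were sorted, and droplet libraries were made at 3 facilities, Aachen, Bonn and Hamburg. No genotype or treatment differed between the groups, and how many animals were pooled in a library was not given. Cells of 1 compartment at 1 facility were treated as 1 library, so that 9 libraries were compared with the 3 facility datasets as replicates (n = 3 per compartment). A dataset is labelled by its facility alone, and effects of the facility, its animals and its library preparation cannot be told apart.

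TREM2 is a surface receptor of macrophages and microglia that binds lipids and lipoprotein particles, apolipoprotein E among them, and signals through the adaptor TYROBP (DAP12), which other myeloid receptors share. Cholesterol taken up by a macrophage passes through the lysosome and leaves the cell mainly through the ABCA1 and ABCG1 transporters, whose genes are targets of the LXR nuclear receptors, as are Apoe, Pltp and Lpl. Macrophages that express Trem2, Gpnmb, Lpl and Fabp5 together are known from atherosclerotic plaque, fat and injured tissue as lipid-associated macrophages.

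The table held 20266 cells in 23 clusters named by the authors, of which 9 were taken as myeloid (5 of macrophages, then monocytes, neutrophils, cDC1 and cDC2; pDC was not included). Resident macrophages were taken as Macrophage_1, Macrophage_2, Macrophage_3 and Isg+_Macrophage, 5367 cells in all, with 168 to 1952 cells and 678410 to 3743530 UMIs per library. Their name held in the markers: C1qa was at 6099 CPM (UMIs per 1000000 UMIs of the summed cells) against 62.9 in the 9594 T and B lymphocytes, and Csf1r at 983 against 8.52. The Aachen cells were shallower, with a median of 889 UMIs per resident macrophage against 4499 in Bonn and 3298 in Hamburg. Hamburg values are not whole numbers and lie below the next whole number by a median of 0.198 for Apoe and 0.238 for Tyrobp but 0.0130 for Trem2, so the tests compare levels within a dataset, and overlap of groups over all datasets is given as a description. Of the cell barcodes, 219 occurred in more than 1 of the 9 libraries, 29 of them within a dataset.

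Of the 10 genes, 6 had promoters in the RefSeq sequences used (build GRCm38.p6). The 250 bases before the transcription start of the 4 genes that were called higher in the medulla of resident macrophages are shown; for Apoe the start farthest upstream of the listed starts was taken. Capitals mark matches, on either strand, to GAGGAAG (the core of a PU.1 site), AGGTCA (the core of nuclear receptor sites), CACGTG (an E-box) or TGACTCA (an AP-1 site), which occur in 10.6%, 14%, 6.02% and 4.46% of 32851 promoter windows of that length.
Trem2 (chr17:48346151-48346400, + strand): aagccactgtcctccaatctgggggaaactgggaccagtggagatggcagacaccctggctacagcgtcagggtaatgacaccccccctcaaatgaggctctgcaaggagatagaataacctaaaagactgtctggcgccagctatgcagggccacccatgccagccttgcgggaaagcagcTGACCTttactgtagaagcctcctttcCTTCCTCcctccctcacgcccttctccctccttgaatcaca
Apoe (chr7:19699189-19699438, - strand): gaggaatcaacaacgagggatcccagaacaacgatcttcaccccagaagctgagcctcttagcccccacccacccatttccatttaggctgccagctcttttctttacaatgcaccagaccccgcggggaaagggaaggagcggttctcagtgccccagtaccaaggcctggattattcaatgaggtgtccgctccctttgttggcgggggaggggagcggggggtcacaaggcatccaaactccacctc
Pltp (chr2:164857709-164857958, - strand): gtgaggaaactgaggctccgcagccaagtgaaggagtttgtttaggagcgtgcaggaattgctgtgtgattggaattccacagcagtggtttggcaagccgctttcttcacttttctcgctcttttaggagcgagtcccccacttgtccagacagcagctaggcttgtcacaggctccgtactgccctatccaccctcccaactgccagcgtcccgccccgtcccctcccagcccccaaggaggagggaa
Abca1 (chr4:53159896-53160145, - strand): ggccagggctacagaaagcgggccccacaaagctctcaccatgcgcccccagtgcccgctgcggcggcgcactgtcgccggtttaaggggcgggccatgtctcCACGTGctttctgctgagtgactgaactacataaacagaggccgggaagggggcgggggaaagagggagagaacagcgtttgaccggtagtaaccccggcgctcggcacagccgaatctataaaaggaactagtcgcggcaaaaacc
The Trem2 window held an AGGTCA and a GAGGAAG match, both on the opposite strand, and the Abca1 window held 1 E-box. None of the 4 letter strings was found in the Apoe or Pltp window. These matches describe the letters and were not tested as sites. The genes themselves, all protein coding in GENCODE vM21, lie at chr17:48346401-48354147 (Trem2), chr7:19696109-19699188 (Apoe), chr2:164839518-164857711 (Pltp) and chr4:53030787-53159895 (Abca1) of build GRCm38. Tyrobp and Apoe share a chromosome, with Tyrobp at chr7:30413760-30417585, and so do Trem2 and Abcg1, with Abcg1 at chr17:31057675-31117988.

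In resident macrophages, Trem2, Apoe, Pltp and Abca1 were higher in the medulla than in the cortex, and Tyrobp, Lpl, Abcg1, Fabp5 and Npc2 did not pass the test. UMIs were summed per library, and the mean of OM and IM was set against the cortex in edgeR (quasi-likelihood test, datasets as blocks), with p-values adjusted by Benjamini-Hochberg over all 8687 genes tested and a threshold of 0.05. Of the 9 genes tested, 4 were called, all of them higher. Over all genes 1.24% were called, and 0.645% were called higher. The genes were chosen with earlier results of these data known, so these shares stand side by side as a description. DESeq2 called 3 of the 4, Trem2, Apoe and Pltp. Leaving out the Hamburg dataset left 0 called, with 6 of 9188 genes called in all. Leaving out the Bonn cortex or the Hamburg cortex library left Trem2 alone, with 14 of 8437 and 23 of 9395 genes called in all. All these calls are of the whole class, whose cluster make-up and content of kidney tubule transcripts also moved with the compartment, as given next.

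The make-up of the class differed between compartments. Macrophage_3 made up 0%, 7.05% and 0% of the resident macrophages of the cortex in Aachen, Bonn and Hamburg, 44.7%, 42.9% and 23.0% of those of the OM, and 1.17%, 43.1% and 15.4% of those of the IM. With Macrophage_3 left out, 0 of the 9 tested genes were called by edgeR in any of the 4 contrasts (medulla, OM and IM against the cortex, and OM against IM), and over all 8610 genes 6, 0, 2 and 0 were called, against 108, 74, 17 and 0 of 8687 with Macrophage_3 in. The log2 change of the medulla against the cortex was then 1.18 ± 0.22 (SE) for Trem2 (adjusted p = 0.0760), 0.58 ± 0.13 for Apoe (adjusted p = 0.139), 0.87 ± 0.20 for Pltp (adjusted p = 0.139) and 0.996 ± 0.27 for Abca1 (adjusted p = 0.210). Kidney tubule markers summed to 26.2 to 43.6 CPM in the cortex, 274 to 451 CPM in the OM and 67.8 to 790 CPM in the IM, with 4 to 10 of the 10 markers detected per library. Aqp2 and Lrp2 were each at 0 in 7 of the 9 libraries. With cells that held a tubule marker UMI left out, 1 gene, Trem2, was called for the medulla against the cortex, with a log2 change of 1.34, and Apoe was at 0.71 (adjusted p = 0.0572), Pltp at 0.85 (adjusted p = 0.202) and Abca1 at 0.93 (adjusted p = 0.252). In that fit 10 of 7812 genes were called in all, and the Bonn IM library held 103 of its 642 cells. What part the cluster make-up or the tubule transcripts had in the class-wide differences was not tested.

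Trem2, the lipid-sensing receptor, had the largest log2 change of the 9 genes for the medulla against the cortex and for the OM alone, whereas in the IM Abca1 was at 1.33 and Trem2 at 1.17. In Aachen it went from 29.0 CPM in cortical cells to 129 CPM in OM and 50.1 CPM in IM cells. The Bonn libraries held 26.5, 75.7 and 60.1 CPM and the Hamburg libraries 17.7, 58.0 and 44.3 CPM in the same order. All 6 medullary libraries lay above the highest cortical one, so that the groups did not overlap, and within each dataset the OM library was above the IM library. How many of all tested genes separated the libraries in this way was not counted, so the separation is a description only. The values rest on few molecules, with 22, 78 and 16.8 UMIs in the cortex of the 3 datasets. The medulla exceeded the cortex by 1.50 ± 0.20 (log2 ± SE, edgeR adjusted p = 0.00477), 2.82-fold, and in 3 of 3 datasets. The differences within datasets, on log2 CPM, were 1.46, 1.35 and 1.41. Without the Hamburg dataset the change was 1.49 and the adjusted p 0.0579.

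Tyrobp, the adaptor through which TREM2 signals, varied over a narrow range. In the order cortex, OM and IM it was at 2559, 3244 and 2994 CPM in Aachen, 3311, 3095 and 3165 CPM in Bonn, and 2468, 2739 and 2474 CPM in Hamburg. No medullary library exceeded the highest cortical library. The log2 change of the medulla was 0.10 ± 0.12 (edgeR adjusted p = 0.876).

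**Figure D1:**
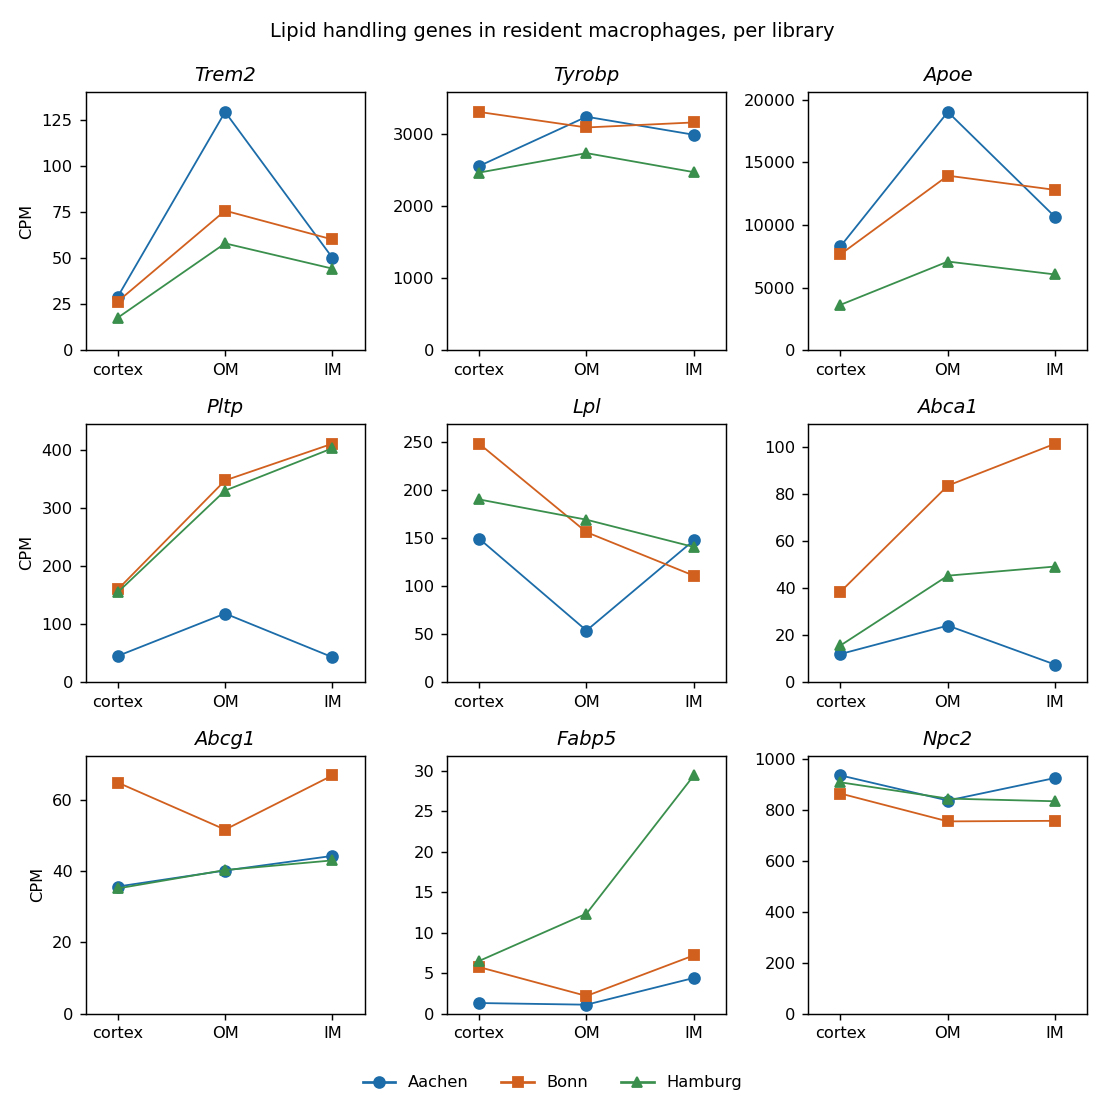
Levels of 9 lipid handling genes in resident macrophages, in CPM of the summed cells (vertical axis from 0) in cortex, OM and IM. Each point is 1 library and each line joins the 3 libraries of a dataset (Aachen, Bonn, Hamburg). Trem2 was at 17.7 to 29.0 CPM in the cortex and at 44.3 to 129 CPM in the medulla; Lpl was below its cortical library in every medullary library of its dataset.

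Apoe, which codes for the lipoprotein component apolipoprotein E, was measured with far more molecules, 151826 UMIs over the class. Cortical, OM and IM cells held 8293, 19018 and 10626 CPM in Aachen. They held 7659, 13934 and 12797 CPM in Bonn, and 3627, 7081 and 6049 CPM in Hamburg. Taken over all datasets the groups overlapped, with 4 of 6 medullary libraries above the highest cortical one. Within each dataset both medullary libraries lay above the cortical one, by a mean of 0.79, 0.85 and 0.81 on the log2 scale. The change was 0.83 ± 0.14 (log2 ± SE, edgeR adjusted p = 0.0128), 1.78-fold. It kept its size but missed the threshold without the Hamburg dataset (0.82, adjusted p = 0.169), the Bonn cortex library (0.81, adjusted p = 0.0631) or the Hamburg cortex library (0.84, adjusted p = 0.0575).

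Pltp, the phospholipid transfer protein, stood at 44.9, 118 and 42.7 CPM in the cortical, OM and IM cells of Aachen, at 160, 348 and 411 CPM in those of Bonn, and at 155, 330 and 404 CPM in those of Hamburg. It was higher in the OM than in the cortex in 3 of 3 datasets and higher in the IM in 2 of 3, the Aachen IM library being the exception. The medulla exceeded the cortex by 1.20 ± 0.23 (log2 ± SE, edgeR adjusted p = 0.0217), 2.30-fold. The adjusted p lay between 0.0505 and 0.304 without the Hamburg dataset or without the Bonn cortex, Hamburg cortex, Hamburg OM or Hamburg IM library, at changes of 1.09 to 1.28.

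Lpl, the lipase that releases fatty acids from lipoproteins, had the opposite sign. From cortex through OM to IM it was at 149, 53.5 and 147 CPM in Aachen, 248, 156 and 111 CPM in Bonn, and 190, 169 and 140 CPM in Hamburg. All 6 medullary libraries lay below the cortical library of their own dataset, in Aachen IM by little. The log2 change was -0.65 ± 0.21 with an edgeR adjusted p of 0.209, so that Lpl did not pass the test. It passed without the Aachen dataset (-0.66, adjusted p = 0.0138) and without the Aachen IM library (-0.84, adjusted p = 0.00746).

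Of the cholesterol exporters, Abca1 was called and Abcg1 was not. Abca1, which loads cholesterol onto lipid-poor apolipoproteins, was found at 11.9, 24.0 and 7.37 CPM in cortical, OM and IM cells of Aachen, at 38.3, 83.4 and 101 CPM in Bonn and at 15.5, 45.2 and 49.1 CPM in Hamburg. The Aachen IM library, with 5 UMIs, was below its cortex library, whereas the other 5 medullary libraries were above the cortex of their dataset. The change was 1.31 ± 0.24 (log2 ± SE, edgeR adjusted p = 0.0176), 2.48-fold, and DESeq2 gave an adjusted p of 0.0735. The edgeR adjusted p lay between 0.0541 and 0.260 without the Bonn dataset, the Hamburg dataset, or the Bonn cortex, Bonn IM, Hamburg cortex or Hamburg OM library, at changes of 1.08 to 1.31. Abcg1, which exports cholesterol to mature particles, ranged from 35.1 to 64.8 CPM in the cortex and from 40.1 to 66.8 CPM in the medulla, with a log2 change of 0.09 ± 0.15 (edgeR adjusted p = 0.931).

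Npc2, the carrier that hands cholesterol out of the lysosome, was at 864 to 936 CPM in the cortex and 755 to 926 CPM in the medulla, with a log2 change of -0.13 ± 0.11 (edgeR adjusted p = 0.811). Fabp5, a cytoplasmic fatty acid binding protein, was near the limit of what these libraries hold, with 108 UMIs in the class. It reached 29.5 CPM in the Hamburg IM library and 1.11 to 12.4 CPM in the other 8, and its log2 change was 0.51 ± 0.43 (edgeR adjusted p = 0.790). Gpnmb had 4 UMIs in the 5367 resident macrophages, 3 of them in Aachen and 1 in Bonn, and was not tested. All were in the medulla, which also held most of these cells, so that so few UMIs show no pattern.

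The OM and the IM were each compared with the cortex. Against the cortex, the OM had the same 4 genes called (0.852% of all genes were called), with log2 changes of 1.83 ± 0.22 for Trem2 (edgeR adjusted p = 0.00220), 1.02 ± 0.15 for Apoe (adjusted p = 0.00942), 1.25 ± 0.26 for Pltp (adjusted p = 0.0392) and 1.29 ± 0.27 for Abca1 (adjusted p = 0.0400). Trem2 was called for the OM in every fit that left out a dataset or a library, while Pltp and Abca1 were lost in most of these fits. Trem2 was called alone without the Hamburg dataset (5 of 9188 genes in all) or the Aachen OM library (8 of 8542). The IM had 0 genes called by edgeR or by DESeq2 (0.196% of all genes were called by edgeR), with 6 of the 9 below an unadjusted p of 0.05. Its log2 changes were 1.17 ± 0.23 for Trem2 (edgeR adjusted p = 0.0602), 0.64 ± 0.15 for Apoe (adjusted p = 0.119), 1.15 ± 0.26 for Pltp (adjusted p = 0.0995) and 1.33 ± 0.26 for Abca1 (adjusted p = 0.0602). Both comparisons share the cortex libraries. Without the Aachen dataset the IM had 5 of the genes called, among 207 of 8935 genes called in all. Without the Aachen IM library it likewise had 5, among 189 of 9369.

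Compared directly, the OM and the IM had 0 of the 9 genes called by edgeR or by DESeq2, where edgeR called 0% of all genes. Below an unadjusted p of 0.05 were 3 of the 9 genes. The log2 difference of OM against IM was 0.66 ± 0.20 for Trem2, 0.38 ± 0.15 for Apoe and -1.30 ± 0.46 for Fabp5, each with an edgeR adjusted p of 0.9996. For Pltp and Abca1 it was 0.09 ± 0.25 and -0.04 ± 0.24.

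**Figure D2:**
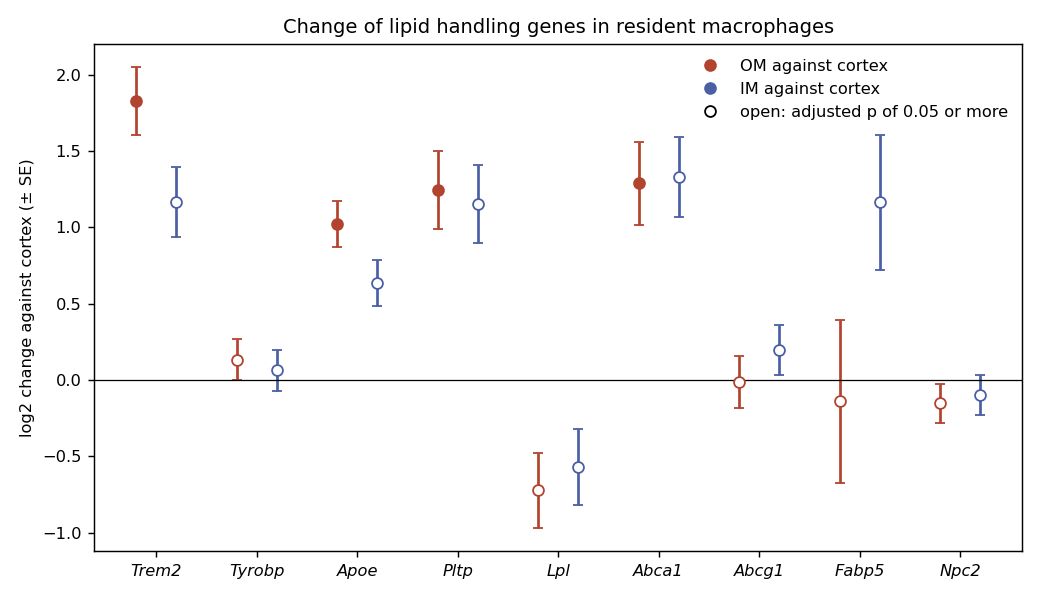
Log2 change of 9 lipid handling genes in resident macrophages of the OM (red) and the IM (blue) against the cortex, from edgeR with the dataset as a block. Bars are standard errors, filled points have an adjusted p under 0.05, and the line marks no change. Trem2 in the OM stands at 1.83 and Lpl in the OM at -0.72.

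The genes were then compared within single clusters, in which the cluster is held fixed; a library entered with at least 20 cells. In Macrophage_1, with 1996 cells and all 9 libraries, Trem2 and Pltp were called among 9 genes tested (0.516% of all genes were called). In cortical, OM and IM cells of this cluster, Trem2 was at 39.9, 109 and 68.3 CPM in Aachen, at 9.94, 58.0 and 44.3 CPM in Bonn and at 23.6, 57.0 and 50.6 CPM in Hamburg, the Bonn cortex value being 1 UMI in 24 cells. All 6 medullary libraries were above every cortical one, again with no count over all genes. The log2 change of the medulla was 1.26 ± 0.28 for Trem2 (edgeR adjusted p = 0.0260) and 1.01 ± 0.22 for Pltp (adjusted p = 0.0209). DESeq2 called 0 genes, and leaving out Aachen left Pltp alone, leaving out Bonn left Apoe alone and leaving out Hamburg left 0.

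Apoe, Abca1 and Lpl did not pass in Macrophage_1. Apoe was higher in both medullary libraries of each dataset, with a log2 change of 0.55 ± 0.15 (edgeR adjusted p = 0.0903). Abca1 had 1.31 ± 0.39 (adjusted p = 0.170) and was above its cortex in 2 of 3 datasets in either part of the medulla. Lpl had -0.77 ± 0.21 (adjusted p = 0.0901) and was below its cortex in each of the 6 medullary libraries.

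In Macrophage_2, with 1680 cells, 0 of 8 genes were called by edgeR and by DESeq2 (0.02% of all genes were called by edgeR), and 3 had an unadjusted p under 0.05. Here Trem2 was at 14.8 CPM in cortical and at 72.9 and 43.6 CPM in OM and IM cells of Aachen, with 25.7, 35.4 and 78.4 CPM in Bonn and 12.8, 34.9 and 10.9 CPM in Hamburg. The Hamburg IM library, with 1.95 UMIs, was the only medullary library below its cortex. The log2 changes of the medulla were 1.34 ± 0.32 for Trem2 (edgeR adjusted p = 0.190), 0.45 ± 0.12 for Apoe (adjusted p = 0.289), 0.64 ± 0.18 for Pltp (adjusted p = 0.289) and -0.11 ± 0.16 for Lpl (adjusted p = 0.999). Without Bonn, Apoe was called.

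Macrophage_3 held too few cortical cells outside Bonn for a test. Its 38 Bonn cortex cells had 9 UMIs of Trem2, 70.8 CPM, against 123 CPM in the Bonn OM and 81.3 CPM in the Bonn IM. Apoe was at 16515 CPM in the Bonn cortex, 19042 CPM in the OM and 15915 CPM in the IM. Pltp was at 149 CPM in the Bonn cortex, from 19 UMIs, 488 CPM in the OM and 545 CPM in the IM.

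**Figure D3:**
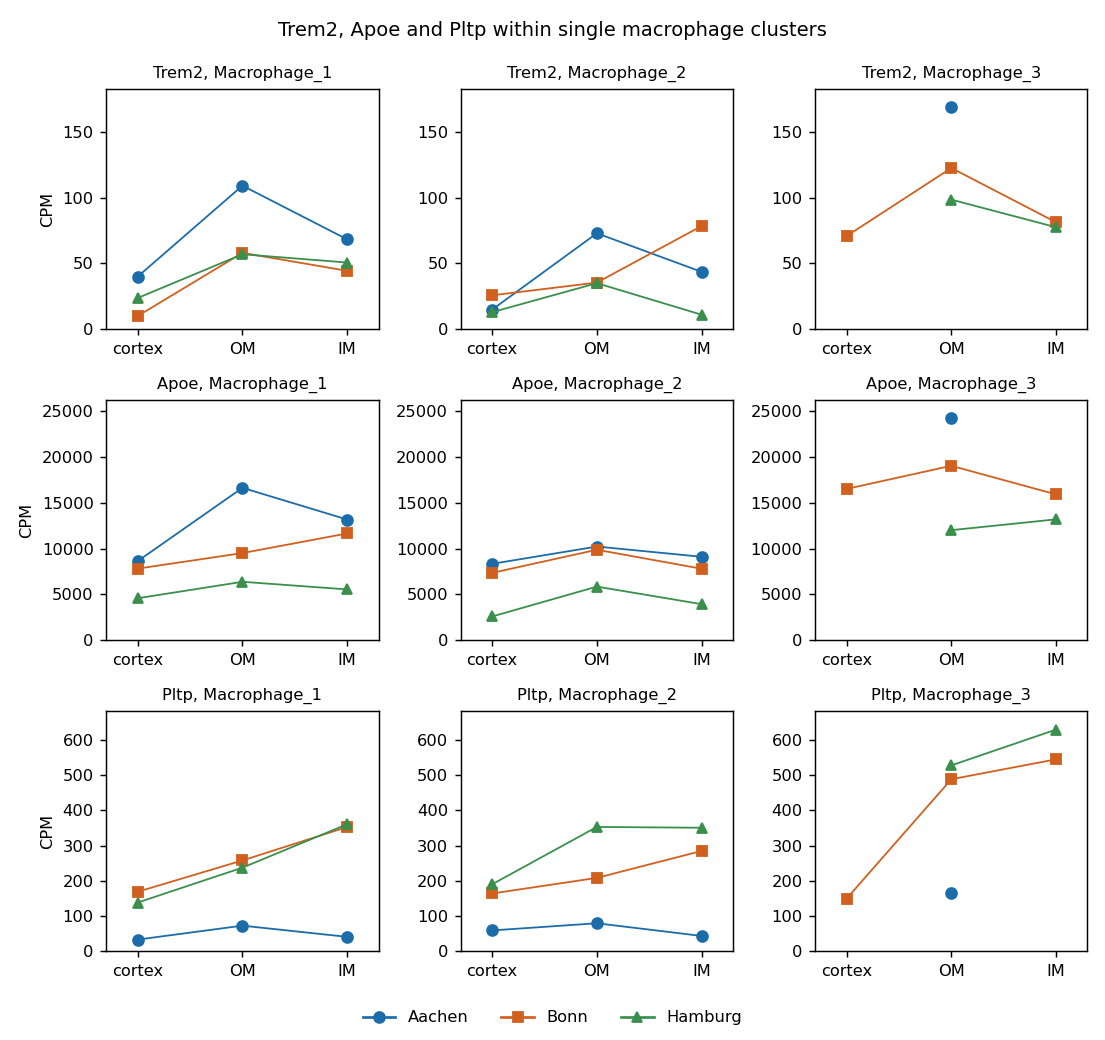
Trem2, Apoe and Pltp in Macrophage_1, Macrophage_2 and Macrophage_3, as CPM of the summed cells of each library (rows share a vertical axis from 0). Points are libraries with at least 20 cells and lines join a dataset. Macrophage_3 had a cortical library only in Bonn, at 70.8 CPM of Trem2.

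In Isg+_Macrophage, the interferon-stimulated cluster, Apoe was called, and it was the only one called of 6 genes tested (0.683% of all genes were called). Apoe was at 3812 CPM in the Aachen cortex, 14412 CPM in the OM and 8526 CPM in the IM, and in Hamburg at 1663, 3021 and 3068 CPM. Bonn kept a cortex library alone, at 5783 CPM, since its OM and IM held under 20 of these cells. With datasets as blocks it adds no difference between compartments, so the change rests on 2 datasets, Aachen and Hamburg. The log2 change was 1.23 ± 0.23 (edgeR adjusted p = 0.00188). DESeq2 called 0 genes, and without the Bonn cortex library edgeR called 0. In Malat+_Macrophage, 0 of 7 genes were called by edgeR and DESeq2 (0.0587% of all genes by edgeR) and 2 had an unadjusted p under 0.05, Pltp with a log2 change of 0.81 ± 0.36 (edgeR adjusted p = 0.871) and Abca1 with 1.08 ± 0.40 (adjusted p = 0.795). Apoe had 0.40 ± 0.33 there.

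Outside the macrophages, monocytes had 0 of 8 genes called by edgeR and DESeq2 (0.332% of all genes by edgeR), with Trem2 at an unadjusted p under 0.05 and a log2 change of 0.78 ± 0.35 (edgeR adjusted p = 0.999). The log2 change in these cells was 0.22 ± 0.12 for Apoe and -0.29 ± 0.23 for Pltp. In cDC2 0 of 6 genes were called by edgeR and DESeq2 (0.304% of all genes by edgeR) and 2 had an unadjusted p under 0.05, Pltp with 0.45 ± 0.22 and Fabp5 with 0.95 ± 0.31 (edgeR adjusted p = 0.531). Apoe had -0.55 ± 0.53 in cDC2.

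In cDC1, Apoe was called among 3 genes tested (1.11% of all genes were called), with a log2 change of 2.32 ± 0.45 (edgeR adjusted p = 6.00e-05). The Apoe values were 20.6, 133 and 505 CPM in the Aachen cortex, OM and IM, 19.2, 24.1 and 109 CPM in the Hamburg ones, and 256 CPM in the Bonn cortex. They rest on few cells: in the Aachen IM 1 of 28 cells held 67.9% of the 53 UMIs, in the Hamburg IM 1 of 24 cells held 69.9%, and in the Bonn cortex 1 of 56 cells held 81.5%. The 10 resident macrophage markers summed to 473 to 642 CPM in the cDC1 cells of the cortex and to 465 to 1458 CPM in those of the medulla, the highest being the Aachen IM. Of these, the complement genes C1qa, C1qb and C1qc summed to 801 CPM in the Aachen IM against 92.9 CPM in its cortex, and their part in the result was not tested. Only 2 datasets, Aachen and Hamburg, kept both cortex and medulla libraries of cDC1, and the change rests on these. With datasets as blocks, the Bonn cortex library adds no difference between compartments. DESeq2 called 0 genes, as did edgeR without the Bonn cortex library or with libraries of at least 10 cells. Neutrophils had too few cortical cells outside Hamburg for a test.

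Across the 9 myeloid clusters, levels are described per dataset with no test, because the clusters were drawn from the same cells. The UMIs of a cluster were summed over compartments, which the clusters fill unequally. In Aachen 873 of 880 Macrophage_3 cells came from the OM, and 294 of 1152 Macrophage_1 cells from the cortex. Hamburg had 0 cortical Macrophage_3 cells. Differences between clusters are thus mixed with those between compartments, for all genes described here. Trem2 was highest in Macrophage_3, at 168, 89.8 and 92.2 CPM in Aachen, Bonn and Hamburg, followed by Macrophage_1 (55.7 ± 19.0 CPM, SD, n = 3), Malat+_Macrophage (45.0 ± 37.3), monocytes (43.3 ± 16.7), Macrophage_2 (32.8 ± 11.6) and Isg+_Macrophage (19.9 ± 3.23). Macrophage_3 exceeded Macrophage_1 in 3 of 3 datasets, by a mean of 1.04 on the log2 scale, beyond the spread. Malat+_Macrophage did not differ beyond its spread from Macrophage_1 above it or from monocytes below it. Neutrophils, cDC1 and cDC2 had at most 7.85 CPM of Trem2.

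Apoe had a similar leading cluster. It was at 24263, 16650 and 12371 CPM in the Macrophage_3 cells of Aachen, Bonn and Hamburg, with Macrophage_1 at 10061 ± 3949 CPM (SD, n = 3), Malat+_Macrophage at 8621 ± 5437, Macrophage_2 at 7021 ± 2558 and Isg+_Macrophage at 6812 ± 3670. The last 4 of these did not differ between neighbours beyond their spread, whereas Macrophage_3 was above Macrophage_1 in 3 of 3 datasets, by 0.86 on the log2 scale. Monocytes were lower, at 3040 ± 1388 CPM, and below Isg+_Macrophage in 3 of 3 datasets. The cDC2 and cDC1 clusters were at 284 ± 163 and 186 ± 149 CPM.

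Among these 9 clusters Pltp was also highest in Macrophage_3, at 166, 505 and 558 CPM, above Macrophage_1 (212 ± 145 CPM) in 3 of 3 datasets. The pDC cluster, not among the 9, held more, 997 CPM pooled over its 99 cells against 422 CPM in Macrophage_3. Abca1 was highest among the 9 in Malat+_Macrophage (98.9 ± 68.5 CPM) and Macrophage_3 (82.4 ± 56.9 CPM), which did not differ beyond their spread, and Macrophage_3 exceeded Macrophage_1 (44.9 ± 29.0 CPM). Lpl had the reverse order among the large macrophage clusters: Macrophage_2 was at 211 ± 55.0 CPM, Macrophage_1 at 120 ± 31.4 CPM and Macrophage_3 at 85.9 ± 47.1 CPM, with Macrophage_1 above Macrophage_3 in 3 of 3 datasets.

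Of the 9 clusters, those of macrophages did not hold the highest summed CPM of Tyrobp, Fabp5 and Gpnmb. Tyrobp was highest in neutrophils (7272 ± 2451 CPM) and monocytes (3996 ± 524 CPM), and the 3 numbered macrophage clusters held 2695 to 3262 CPM on average. Fabp5 was at 95.0 ± 23.2 CPM in cDC2, 74.7 ± 34.1 in monocytes and 73.2 ± 8.01 in neutrophils, against 1.90 to 9.79 CPM in the 5 macrophage clusters. Npc2 ranged from 324 ± 158 CPM in neutrophils to 1066 ± 84.9 CPM in monocytes, which did not differ beyond the spread from Isg+_Macrophage (1018 ± 269 CPM), and Abcg1 from 18.7 ± 3.65 CPM in cDC1 to 63.1 ± 9.47 CPM in Malat+_Macrophage. Gpnmb had 97.5 UMIs in the whole series, 38.9 of them in T_cell_1 and 15.9 in monocytes.

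**Figure D4:**
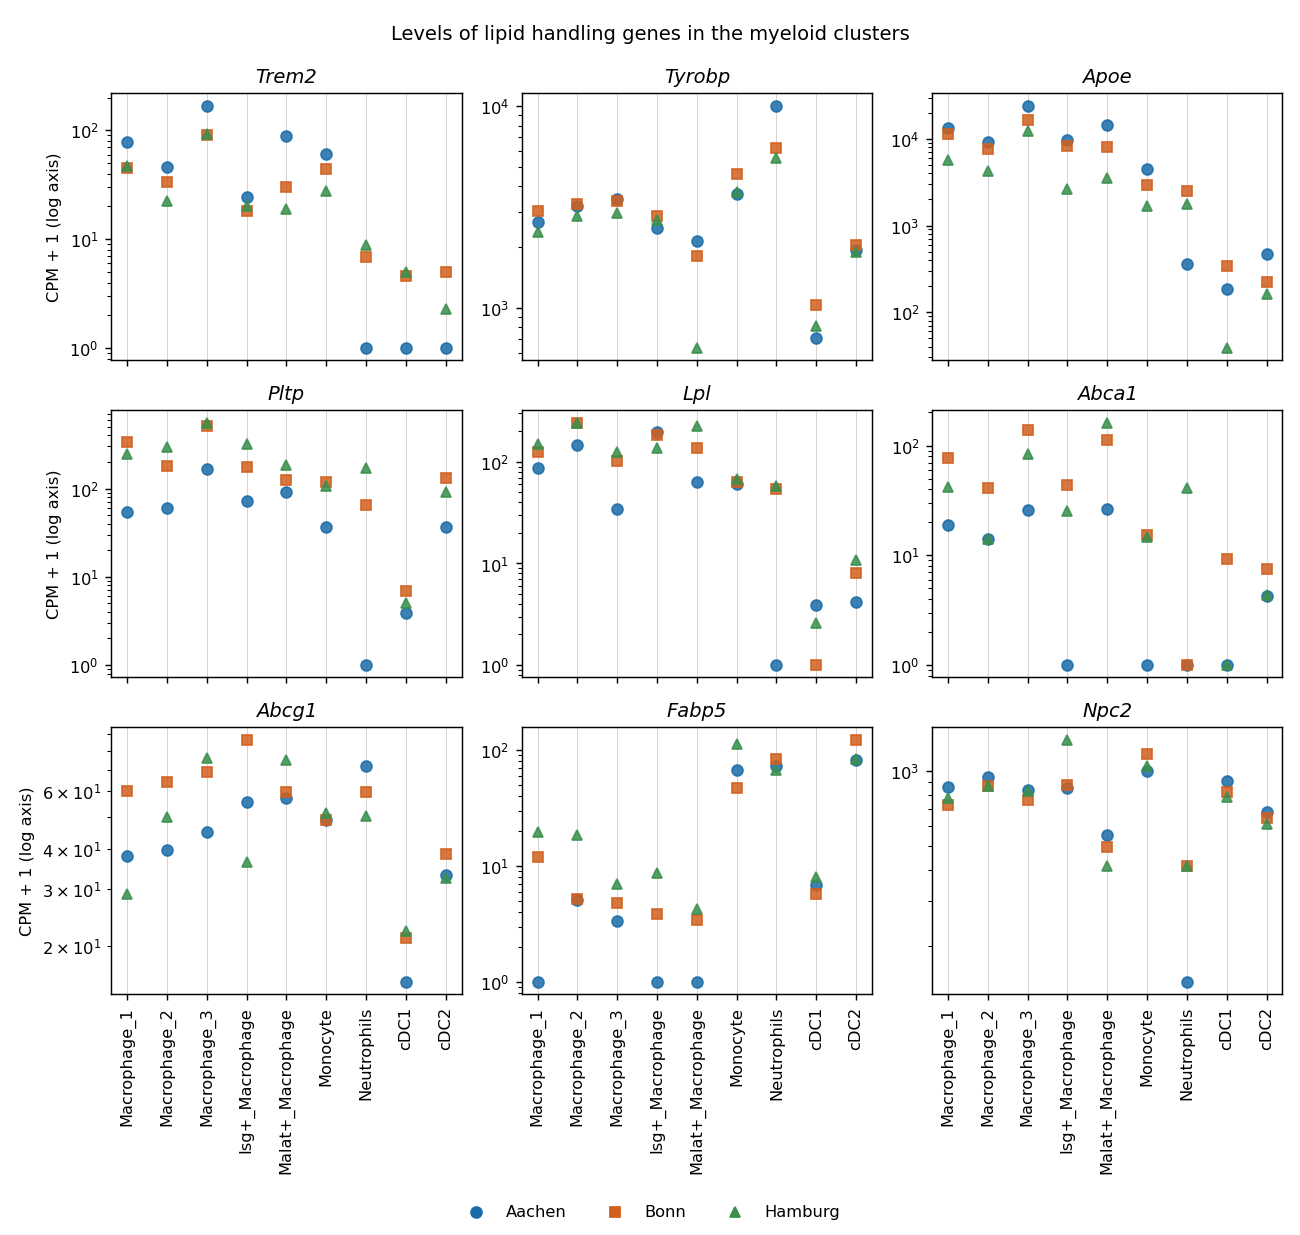
Levels of 9 lipid handling genes in the 9 myeloid clusters, as CPM plus 1 on a log axis, with 1 point per dataset (UMIs of a cluster summed over the compartments). Macrophage_3 leads for Trem2, at 89.8 to 168 CPM, and Fabp5 is at 95.0 CPM on average in cDC2.

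The genes also differed in how far they were shared with other cells. Of the UMIs of Trem2 in the series, 97.7% came from the 9 myeloid clusters and 77.2% from the resident macrophages. Apoe was at 95.8% and 82.8%, and Lpl at 92.5% and 75.1%. Abca1, at 58.8% and 44.8%, had 437 UMIs in B_cell_1 and its highest pooled level, 308 CPM, in B_cell_3, and Fabp5 had 7.27% of its UMIs in the resident macrophages.

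To compare shares of cells at a single depth, each cell was thinned to 500 UMIs, which left out 222 of 3044 Aachen resident macrophages and none in Bonn and Hamburg. A UMI of Trem2 was then found in 1.65%, 0.557% and 0.862% of the resident macrophages of the cortex of Aachen, Bonn and Hamburg, in 6.16%, 3.57% and 3.11% of those of the OM, and in 2.81%, 2.49% and 2.32% of those of the IM. At full depth the means over datasets were 6.47%, 16.4% and 13.4% for cortex, OM and IM. All 6 medullary values lay above the cortical ones, likewise with no count over all genes. At most a mean of 0.0916% of the lymphocytes of a compartment held a thinned UMI of Trem2. A UMI of Apoe was found in 61.2%, 75.1% and 54.7% of the thinned cells of the cortex, in 91.4%, 91.1% and 77.0% of the OM and in 66.4%, 91.7% and 68.0% of the IM; at full depth the means were 77.1%, 92.1% and 84.5%.

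For Apoe the lymphocytes also held UMIs, in a mean of 5.17%, 11.1% and 8.48% of the thinned cells of the cortex, OM and IM. For Pltp the thinned means were 4.04%, 11.3% and 10.7% in the resident macrophages of the cortex, OM and IM, and 0.486% to 0.601% in lymphocytes. For Abca1 they were 1.30%, 2.47% and 2.24% against 1.05%, 1.91% and 1.35% in lymphocytes, so that at this depth the share of macrophages with a UMI of Abca1 was close to that of lymphocytes. The median depth was 1574 UMIs in the resident macrophages and 2537 in the lymphocytes.

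**Figure D5:**
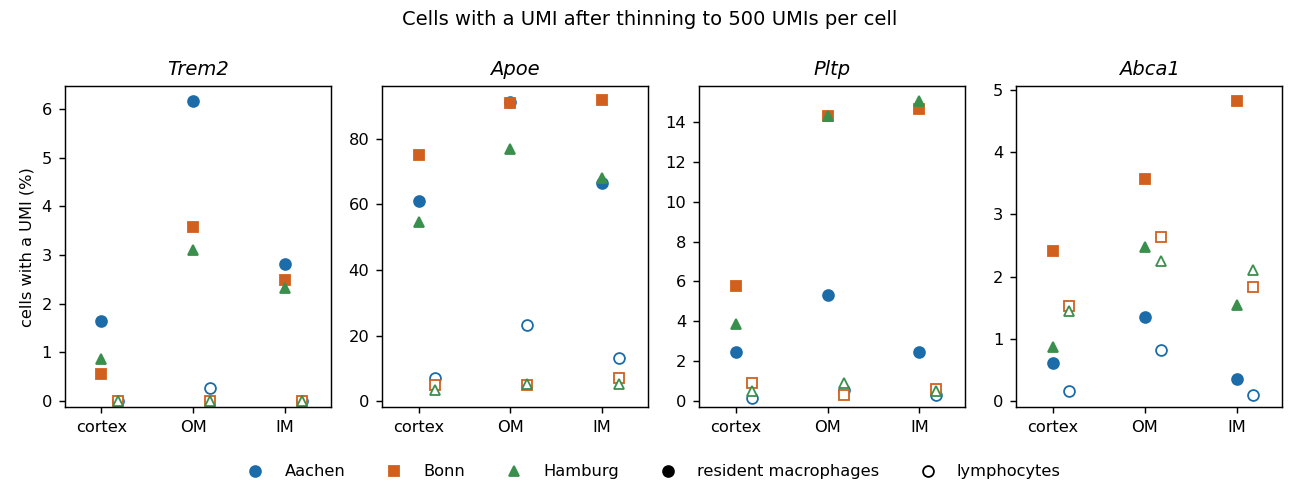
Percent of cells with a UMI of Trem2, Apoe, Pltp or Abca1 after thinning to 500 UMIs per cell, per library (filled: resident macrophages, open: lymphocytes). Trem2 was found in 0.557% to 1.65% of cortical and 2.32% to 6.16% of medullary resident macrophages.

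Whether a medullary difference was larger in resident macrophages than in lymphocytes was tested as an interaction in edgeR over both classes. Of the 9 genes, Pltp was called (2.29% of all genes were called), with an effect larger by 1.13 ± 0.23 on the log2 scale (adjusted p = 0.00358). In lymphocytes the Pltp change was 0.15 ± 0.21. The difference for Pltp was 0.77 without Bonn (adjusted p = 0.526) and 1.25 without Hamburg (adjusted p = 0.125). For Apoe the difference of effects was 0.39 ± 0.22 (edgeR adjusted p = 0.556), with a change of 0.46 ± 0.38 in lymphocytes, so that a change particular to macrophages was not shown for Apoe. Lymphocytes held 379, 1520 and 788 CPM of Apoe in the Aachen cortex, OM and IM, and 104 to 245 CPM in the Bonn libraries. The Hamburg libraries held 73.2 to 119 CPM, from values that lie below whole numbers and are best read within that dataset. The Apoe difference was 0.98 without Aachen (edgeR adjusted p = 9.68e-05), 0.28 without Bonn (adjusted p = 0.809) and -0.14 without Hamburg (adjusted p = 0.973). In cells thinned to 500 UMIs it was 0.095 (adjusted p = 0.972). For Abca1 the difference was 0.73 ± 0.24 (edgeR adjusted p = 0.121), with a change of 0.63 ± 0.20 in lymphocytes (adjusted p = 0.227). A change particular to macrophages was thus not shown for Abca1 either. The Abca1 difference was 0.85 without Aachen (adjusted p = 0.0178), 0.55 without Bonn (adjusted p = 0.839) and 0.57 without Hamburg (adjusted p = 0.828). In thinned cells it was 0.51 (adjusted p = 0.912). Lymphocytes had too few UMIs of Trem2, at most 5 in a library, for its interaction to carry information.

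The genes whose pattern over 27 sums of a dataset and a myeloid cluster was most like that of Trem2, of 5456 genes with a mean of at least 20 CPM, were Rnase4 (Pearson's r = 0.90), Dusp6 (0.90), Camk1 (0.87), Fcgr3 (0.86) and Ang (0.86). For Apoe they were Ctsb (0.97), Itm2b (0.94), Laptm4a (0.94), Lilra5 (0.93) and C1qa (0.93). Trem2 and Apoe were related at r = 0.81, which placed Apoe at rank 34 for Trem2. Trem2 was at r = 0.74 with Lpl, 0.72 with Abca1, 0.71 with Pltp and 0.53 with its adaptor Tyrobp, and at -0.30 with Fabp5. Values were centred within datasets, and sums of a dataset share their libraries and depth; these are descriptions across clusters.

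Other genes of the same pathways, taken from 6 lists, had 2 members called in resident macrophages, both lower in the medulla. Over all 8687 genes the median log2 change of the medulla was 0.01, with 56 genes called higher and 52 lower. Of 17 listed genes of the TREM2 pathway and TYROBP partners 13 passed the filter on low counts, of which 0 were called higher and 1 lower, and their median was -0.19. The gene called lower was Sirpb1a, a TYROBP-coupled receptor of a family of near-identical copies between which reads can be split, whose level (CPM scaled by TMM, mean ± SD, n = 3) was 125 ± 13.3 in cortical, 55.2 ± 21.8 in OM and 69.5 ± 30.3 in IM cells, a log2 change of -1.13 ± 0.21 (edgeR adjusted p = 0.0197).

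Of 21 listed genes of the lipid-associated macrophage signature 19 were tested, of which 0 were called higher and 1 lower, with a median of 0.11. That gene was Itgax, which codes for the integrin CD11c, at 134 ± 42.7 CPM in cortical, 56.1 ± 40.0 CPM in OM and 53.9 ± 21.0 CPM in IM cells, a log2 change of -1.46 ± 0.26 (edgeR adjusted p = 0.0176). Genes of LXR and cholesterol efflux other than the 10 had 0 of 11 called, of 18 listed, and a median of -0.09; the lowest p-values belonged to Abcg3, a transporter gene (-1.28 ± 0.30, edgeR adjusted p = 0.0506), and Cyp27a1, the sterol 27-hydroxylase gene (0.23 ± 0.13, adjusted p = 0.633).

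Cholesterol synthesis genes had 0 of 13 called, of 18 listed, with 11 negative log2 changes and a median of -0.23. Fdps, an enzyme of the isoprenoid branch point, was at 31.6 ± 11.0 CPM in cortical, 15.9 ± 3.88 CPM in OM and 20.5 ± 2.72 CPM in IM cells, with a log2 change of -0.82 ± 0.20 (edgeR adjusted p = 0.0637). Hmgcs1, which makes HMG-CoA, had -0.86 ± 0.26 (adjusted p = 0.162). Of 19 lysosomal lipid breakdown genes 0 were called and the median was 0.02, with the phospholipase gene Pla2g15 at 0.45 ± 0.14 (edgeR adjusted p = 0.174) and the ganglioside activator Gm2a at -0.43 ± 0.14 (adjusted p = 0.196). Of 22 listed genes of fatty acid uptake and storage 14 were tested, of which 0 were called and the median was 0.08, with the HDL receptor gene Scarb1 at -0.85 ± 0.21 (edgeR adjusted p = 0.0792) and the endocytic receptor gene Lrp1 at 0.54 ± 0.20 (adjusted p = 0.315).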

How the data were processed

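CD45-sorted kidney immune cells of 3 compartments were sequenced at 3 facilities. The authors mapped reads to mm10 with Cell Ranger, filtered cells (200 to 4000 genes, at most 20% mitochondrial UMIs) and clustered them in Seurat. The deposited values are expected counts of UMIs per gene and cell, not scaled to a common total; of the Hamburg values above 0, 0.118% are exactly whole, and why is not given in the sources used here. For each library, cells of a class were added up and rounded. Sums were filtered with filterByExpr, scaled by TMM and tested with glmQLFit and glmQLFTest in R 4.3.3 (edgeR 4.0.16), datasets entering as blocks; DESeq2 1.42.0 was an alternative. Plain CPM are UMIs per 1000000 UMIs of the sum. The libraries of a dataset resemble each other: centred profiles of 5132 genes correlated at 0.87 to 0.95 in the 9 pairs that share a dataset. The 18 other pairs were at -0.84 to 0.50. Each gene was centred on its mean over the 3 libraries of a compartment, which by itself lowers the values of these other pairs. Cluster neighbours differ beyond their spread where the log2(CPM + 1) difference has 1 sign in all datasets and its mean exceeds its SD. Named genes of each list are up to 4 that were called, otherwise the 2 with the lowest p. For each of Trem2 and Apoe, the 5 genes of highest correlation were named. The genes and lists were chosen with earlier results of these data known. No doublet caller was run; cells with T or B cell marker UMIs were left out as an alternative. The tests were checked on simulated data. Whether the 3 libraries of a facility came from the same animals is not given in the sources used here. With datasets as blocks, p-values set the differences between compartments against their spread from dataset to dataset. The edgeR fit estimates that spread in part from all genes tested, so a p-value does not rest on the spread of its own gene alone. In Isg+_Macrophage and cDC1 only 2 datasets held both cortex and medulla, and a low p-value there does not show agreement of 3 datasets.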

Additional observations from a re-analysis of the deposited data

Results flagged for a closer look

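Pltp is listed because its medullary effect differed between cell classes in a test of the difference itself. The log2 change of the medulla against the cortex was larger in resident macrophages than in lymphocytes by 1.13 (edgeR interaction, adjusted p = 0.00358). It was 1.18 without Aachen (adjusted p = 0.000144), 0.77 without Bonn (adjusted p = 0.526) and 1.25 without Hamburg (adjusted p = 0.125), and 1.50 in cells thinned to 500 UMIs (adjusted p = 0.176).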

How the results depend on the processing

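Of the 10 genes, 4 were called for the medulla against the cortex in resident macrophages. The count was 0 with no replicate block (0 of 8228 genes in all), although libraries of a dataset resemble each other. It was 0 without Macrophage_3, 1 without cells holding a tubule marker UMI, and 0 to 5 when a dataset or library was left out. For the OM (4 called) it was 0 with no replicate block and 0 without Macrophage_3, where 0 of all genes were called too. It was 2 without tubule marker cells (18 of 7812 genes in all) and 2 with Malat+_Macrophage added (32 of 9139). In the leave-one-out fits it was 1 to 4. For the IM (0 called) it was 5 with no filter on low counts, 1 without cells with T or B cell markers, 3 without Isg+_Macrophage and 0 to 5 in the leave-one-out fits; over all genes the IM calls were 279 of 16578, 34 of 8339 and 41 of 8308 in the first 3 of these, against 17 of 8687. Macrophage_1 (2 called) had 0 by DESeq2, 0 with no replicate block and 0 to 1 in the leave-one-out fits; Macrophage_2 (0 called) had 0 to 1. Isg+_Macrophage and cDC1 (1 called each) had 0 by DESeq2, 0 with no replicate block and 0 in the leave-one-out fit that could be made, and cDC1 had 0 with libraries of at least 10 cells. The interaction (1 called) had 0 in thinned cells and 0 to 4 in the leave-one-out fits. The cause of these shifts was not tested. Trem2, Apoe, Pltp and Abca1 kept a positive change under every alternative run, with leave-one-out ranges of 1.32 to 1.61, 0.72 to 0.92, 1.05 to 1.31 and 1.08 to 1.44. Changes that turned sign were near 0 in the main fit or low: Abcg1 was -0.0401 without T or B cell marker cells and -0.0540 without Macrophage_3, and the leave-one-out ranges were -0.0197 to 0.167 for Tyrobp and -0.20 to 1.41 for Fabp5. With 3 datasets, Trem2 at 16.8 to 232 UMIs per library and Fabp5 and Gpnmb below that, depth limits what can be seen of the sparse genes.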
